A study of Mus musculus with 6 samples.

Results

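The transcripts described here are those whose response to LPS differed between WT and Lpin2 KO RAW-D cells. For each of 19505 named genes, the change with LPS in WT cells was subtracted from the mean change with LPS in the KO clones #1 and #2, and the result was tested. Of these genes, 641 passed the test, 278 toward a higher and 363 toward a lower signal in KO cells. These 641 were then separated into genes whose level with LPS differed between the genotypes and genes whose level differed already without LPS. All 6 samples of the study entered each value.

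RAW-D is a mouse macrophage line that readily forms osteoclasts. Cultures were WT cells or KO cells, in which a puromycin cassette had been placed into the Lpin2 gene by CRISPR/Cas9 and homology-directed repair, followed by puromycin selection. Each KO line is a single clone, so traits of the clone and of the genotype cannot be told apart within it. Each of WT, clone #1 and clone #2 was measured on 1 mouse Clariom S array untreated and on 1 array after 4 h with 200 ng/mL LPS. Lpin2 itself had log2 signals of 7.21 untreated and 6.84 with LPS in WT cells, 7.97 and 7.52 in clone #1 and 8.42 and 7.98 in clone #2. These lay below the background, set by negative control probes, on all 6 arrays, and the difference between responses was -0.07 (SE 0.42, adjusted p = 0.962), so this probe set cannot be used to check the genotypes.

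LPS, a lipid of the bacterial outer membrane, is sensed by TLR4, whose adaptors MyD88 and TRIF activate NF-κB, MAP kinases and interferon regulatory factors. Macrophages then transcribe cytokines, chemokines and interferon-stimulated genes, together with inhibitors that feed back on the same pathway. Lipin-2, the product of Lpin2, is a phosphatidate phosphatase that makes diacylglycerol. A gene can respond more strongly to LPS in one genotype because it ends at another level, because it starts from another level, or both, and these cases are kept apart throughout.

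A difference between responses is given on the log2 scale as KO minus WT, and a positive value means that the signal rose more, or fell less, in KO cells; SE is the standard error of the fit. It was tested with limma, two-sided, with the Benjamini-Hochberg adjustment over all genes and a threshold of 0.05. As WT has 1 array per treatment, the spread was estimated between the 2 KO clones, with 2 residual degrees of freedom, and WT cultures were taken to scatter like them. The smallest p that an exact permutation of 1 against 2 arrays allows is 0.333. Signals below the 95th percentile of an array's negative control probes (9.12 to 9.45) are called dim. Where dim signals could only make a difference smaller, it is given as a lower bound; where a WT response was dim at both ends, no fold is given and the p refers to the signals as measured. The median signal of gene probe sets ranged from 5.75 to 5.86 over the arrays. Of the 641 genes, 272 were above the limit on at least 1 array of every group and 136 gave a lower bound. For 150, dim signals left no bound, and 83 were dim in every group. By its label the untreated WT array was summarized at the gene level and the other 5 at the exon level. That array enters every untreated genotype difference, every WT response and every difference between responses. The part of the summary level in these values was not tested.

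The difference between responses mostly lay in KO cells, where the mean change with LPS exceeded 2-fold in 2337 genes, against 144 between the WT arrays. Over all genes, 1.43% passed toward KO higher and 1.86% toward KO lower, and the median difference was -0.04. All 278 genes toward KO higher rose with LPS in the mean of the clones, and all 363 toward KO lower fell. In WT cells the former rose in 212 and fell in 66, while the latter fell in 251 and rose in 112, and the WT change exceeded 2-fold in 25 of the 641. For comparison, 16.6% of all genes passed for LPS against untreated in KO cells, where both clones were measured. The same comparison in WT cells has 1 array per treatment and a larger standard error, so its count of calls does not show an absent response. In WT cells limma called 0 genes for LPS against untreated, with 658 at an unadjusted p under 0.05, while an intensity trend in the fit gave 1 call. The difference between responses exceeded 1 in the same direction in each clone for all 641 genes, a property that the test favors. The counts rest on the untreated KO arrays. Without untreated clone #1, 97 genes passed toward KO higher and 65 toward KO lower, and without untreated clone #2, 91 and 94. With the clone as a replicate block, 513 and 565 passed, among them all 641.

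Most of the 641 genes differed between the genotypes at the end of the LPS treatment and not at its start. KO against WT passed in 11.3% of all genes with LPS and in 4.31% untreated. Among the 641, only the level with LPS passed for 437 genes (179 toward KO higher, 258 toward KO lower) and only the untreated level for 94 (35 and 59). Both levels passed in opposite directions for 59 (43 and 16) and in the same direction for 28 (11 and 17), and neither passed alone for 23. With the clone as a replicate block these counts were 672 for the level with LPS, 176 for the untreated level, 102 for opposite directions and 97 for the same direction. Without untreated clone #1 they were 111, 26, 19 and 4, and without untreated clone #2 132, 28, 19 and 5. A level that did not pass is not shown to be equal. Dim signals left no bound for the difference between responses in 86 of the 437 genes, and 52 were dim in every group. For the 94 genes of the untreated level the numbers were 28 and 18. They were 18 and 2 for opposite directions, and 15 and 5 for the same direction. Of the latter 28, 2 were above the limit on at least 1 array of every group and 6 gave a lower bound. Where a level was dim, its genotype difference is that between signals as measured. In the 437 genes the median size of the untreated difference was 0.48 toward KO higher and 0.51 toward KO lower, against median differences with LPS of 2.56 and -2.74.

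**Figure D1:**
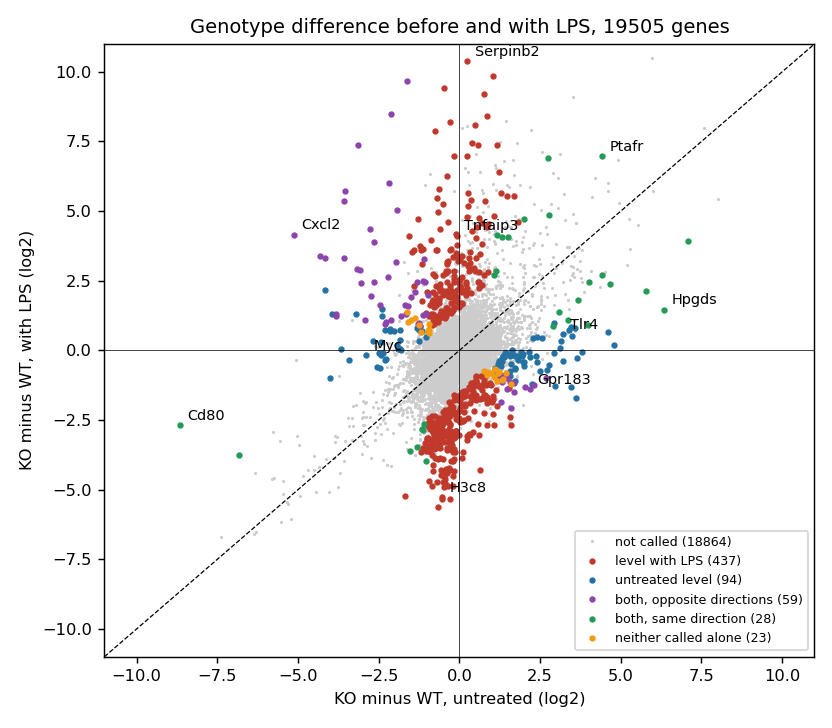
Each point is a gene, with its log2 difference KO minus WT untreated on the horizontal axis and with LPS on the vertical axis; the dashed line marks equal differences, so distance from it is the difference between responses. Of the coloured genes, 437 lie apart from the line along the vertical axis (level with LPS), 94 along the horizontal axis (untreated level) and 59 in the quadrants of opposite sign.

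The first group to be described is the signaling pathway itself. Of 29 TLR receptors, adaptors and kinases, 5 passed toward KO higher and 1 toward KO lower, with a median difference of 0.18. The gene that was lower was Tlr4, the LPS receptor. Its log2 signals were 9.80 untreated and 9.47 with LPS in WT cells, 12.92 and 9.97 in clone #1 and 13.09 and 10.13 in clone #2. Both clones thus started above WT cells, by 3.20 (adjusted p = 0.00206), and ended 0.58 (adjusted p = 0.141) from them, which made a difference between responses of -2.62 (SE 0.28, adjusted p = 0.0129). Tlr13, a receptor of bacterial ribosomal RNA, had a like course, with signals of 9.17 and 9.01 in WT cells, 12.36 and 9.09 in clone #1 and 12.65 and 10.16 in clone #2, but did not pass with -2.72 (SE 0.62, adjusted p = 0.0923). The adaptor genes Myd88 and Ticam1, 2 of the 4 adaptors in the list, passed in the other direction and by the level with LPS. Myd88 had signals of 12.98 and 12.89 in WT cells, 12.94 and 14.56 in clone #1 and 12.66 and 14.34 in clone #2, an untreated genotype difference of -0.18 (adjusted p = 0.725), and a difference between responses of 1.74 (SE 0.31, adjusted p = 0.0493). For Ticam1, which encodes TRIF, the signals were 9.76 and 10.24 in WT cells, 10.05 and 12.57 in clone #1 and 9.96 and 12.38 in clone #2 and the difference was 1.995 (SE 0.28, adjusted p = 0.0255). The kinase Irak2 and the ubiquitin ligase Peli1 differed by 2.52 (adjusted p = 0.0129) and 3.44 (adjusted p = 0.0143) and were above the background limit in WT cells. Ikbke, a kinase of interferon regulatory factors, differed by 3.59 (adjusted p = 0.00818) from WT signals close to or below the limit. Map3k7, which encodes TAK1, had signals of 11.61 and 11.61 in WT cells, 11.54 and 11.75 in clone #1 and 11.54 and 11.69 in clone #2 and a difference of 0.18 (SE 0.26, adjusted p = 0.810). Without untreated clones #1 and #2, 1 and 1 of the 6 still passed.

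NF-κB subunits and IκB proteins responded more in KO cells, and the genes divided by which level differed. Of 14 measured, 8 passed toward KO higher and 0 toward KO lower, with a median of 2.03; 10 had an unadjusted p under 0.05, and 0 were lower with the clone as a block. In 4 of the 8 only the level with LPS passed, in 2 only the untreated level and in 2 both in opposite directions. Nfkbid, which encodes the nuclear IκB protein IκBNS, had signals of 14.03 untreated and 14.12 with LPS in WT cells, 11.50 and 14.39 in clone #1 and 11.19 and 14.51 in clone #2. The clones started below WT cells by -2.68 (adjusted p = 0.00423) and ended 0.33 (adjusted p = 0.437) from them, so that the difference between responses was 3.01 (SE 0.31, adjusted p = 0.0113). Nfkbia, which encodes IκBα, was also of the untreated kind, with signals of 14.72 and 15.06 in WT cells, 13.35 and 15.85 in clone #1 and 13.67 and 16.02 in clone #2. Both clones ended above WT cells in Nfkbia, a difference that did not pass. It started lower by -1.22 (adjusted p = 0.0461) and differed in response by 2.09 (SE 0.32, adjusted p = 0.0317). In Bcl3, a nuclear IκB protein, both levels passed: it had 11.65 and 11.91 in WT cells, 10.14 and 13.45 in clone #1 and 9.98 and 13.58 in clone #2, below WT untreated and above WT with LPS, and a response 9.15-fold larger (3.19 (SE 0.28, adjusted p = 0.00820) on the log2 scale). Nfkbiz, which encodes IκBζ, followed the same course with 5.13 (SE 0.50, adjusted p = 0.0103), but its WT signal was dim untreated. For Nfkbib, Nfkbie, Nfkb2 and Rel only the end level passed. Nfkbib, which encodes IκBβ, had signals of 12.80 and 12.85 in WT cells, 12.21 and 15.08 in clone #1 and 11.45 and 14.72 in clone #2 and a difference of 3.02 (SE 0.50, adjusted p = 0.0406). Rel, which encodes c-Rel, differed by 1.71 (adjusted p = 0.0422) and Nfkb2, the precursor of p52, by 2.78 (adjusted p = 0.0165), with the untreated clones dim. When untreated clone #1 or #2 was left out, 4 and 3 of the 8 still passed.

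Promoter stretches of 4 of these genes are shown, some that differed at the untreated level and some with LPS, each with a κB match in the promoter window. They are 100 bases of the sense strand from RefSeq (GRCm38.p6), with matches to the κB consensus, searched on both strands of the promoter window around the start, in capitals. Each window has the same length, but a gene with several start sites has several windows and holds a match if any of them does. The length searched therefore differs between genes. Nfkbid (chr7:30422180-30422279, plus strand) and Nfkbia (chr12:55492648-55492747, minus strand) differed untreated, and Rel (chr11:23770970-23771069, minus strand) and Nfkbie (chr17:45555549-45555648, plus strand) with LPS.
Nfkbid: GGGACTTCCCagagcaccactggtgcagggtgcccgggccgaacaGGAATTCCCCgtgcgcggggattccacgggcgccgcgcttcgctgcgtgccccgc
Nfkbia: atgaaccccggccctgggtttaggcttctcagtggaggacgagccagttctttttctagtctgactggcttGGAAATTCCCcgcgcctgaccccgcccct
Rel: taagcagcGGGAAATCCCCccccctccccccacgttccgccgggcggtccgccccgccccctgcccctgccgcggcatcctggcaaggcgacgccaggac
Nfkbie: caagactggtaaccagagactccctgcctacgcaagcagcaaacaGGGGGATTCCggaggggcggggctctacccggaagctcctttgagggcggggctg
Such a match was present in 6 of the 7 genes of this group that have a window and passed, against 5.51% of the 15691 tested genes with one. Among the proinflammatory cytokines that passed it was present in 0 of 7. Of all genes toward KO higher with a window, it stood in 4 of 28 that passed by the untreated level only. By the level with LPS only, it stood in 18 of 142. The match count is a description of letters, and the groups were known when the motif was chosen.

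Feedback inhibitors of TLR signaling, several of them known NF-κB targets, held 12 of 28 genes that passed toward KO higher and 0 toward KO lower (22 had an unadjusted p under 0.05, and with the clone as a block 14 were higher and 0 lower). The median difference was 1.64. Tnfaip3, which encodes the ubiquitin-editing enzyme A20, had log2 signals of 9.48 untreated and 10.75 with LPS in WT cells, 9.46 and 15.10 in clone #1 and 9.34 and 14.62 in clone #2. The untreated genotype difference was -0.08 (adjusted p = 0.906), and the rise was 18.3-fold larger in KO cells (4.19 (SE 0.36, adjusted p = 0.00818) on the log2 scale). Zfp36, which encodes the mRNA-destabilizing protein tristetraprolin, shared this form with signals of 12.85 and 13.16 in WT cells, 12.58 and 16.44 in clone #1 and 12.38 and 16.11 in clone #2 and a difference of 3.48 (SE 0.32, adjusted p = 0.00972). Tnip1, a partner of A20, was of the untreated kind: its signals were 13.54 and 13.78 in WT cells, 11.37 and 14.49 in clone #1 and 11.44 and 14.63 in clone #2. It started lower in KO cells by -2.14 (adjusted p = 0.00550) and differed in response by 2.92 (SE 0.27, adjusted p = 0.00972). The RNases Zc3h12a and Zc3h12c, also called regnase-1 and regnase-3, both started lower in KO cells. Zc3h12a had 12.29 and 12.34 in WT cells, 8.67 and 13.54 in clone #1 and 8.29 and 13.61 in clone #2, a change in sign of the genotype difference, and at least 17.6-fold more response (adjusted p = 0.00491). Zc3h12c had 13.20 and 13.34 in WT cells, 11.03 and 14.04 in clone #1 and 10.74 and 14.12 in clone #2 and a difference of 3.06 (SE 0.30, adjusted p = 0.0109). The ERK phosphatase Dusp5 had 13.20 and 13.82 in WT cells, 10.22 and 15.79 in clone #1 and 10.68 and 15.73 in clone #2, so clones lay below WT cells untreated and above them with LPS, and differed by 4.70 (SE 0.35, adjusted p = 0.00739). Socs3, an inhibitor of JAK kinases, was dim in untreated WT cells and in the untreated clones. Its signals were 7.97 and 9.56 in WT cells, 5.19 and 13.78 in clone #1 and 5.21 and 14.05 in clone #2, and the KO rise was at least 22.9-fold. With the untreated array of clone #1 or #2 dropped, 10 and 9 of the 12 still passed.

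A pair of promoters from the feedback group is shown for comparison with the κB matches above, Tnip1 (chr11:54962941-54963040, minus strand) of the untreated kind and Tnfaip3 (chr10:19015411-19015510, minus strand) of the kind that differed with LPS.
Tnip1: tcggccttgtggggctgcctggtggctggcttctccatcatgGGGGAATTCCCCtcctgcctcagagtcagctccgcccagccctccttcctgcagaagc
Tnfaip3: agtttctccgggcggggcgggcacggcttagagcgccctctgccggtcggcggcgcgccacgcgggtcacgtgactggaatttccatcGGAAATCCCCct
Among the 11 feedback genes that passed and have a window, 2 held a match.

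**Figure D2:**
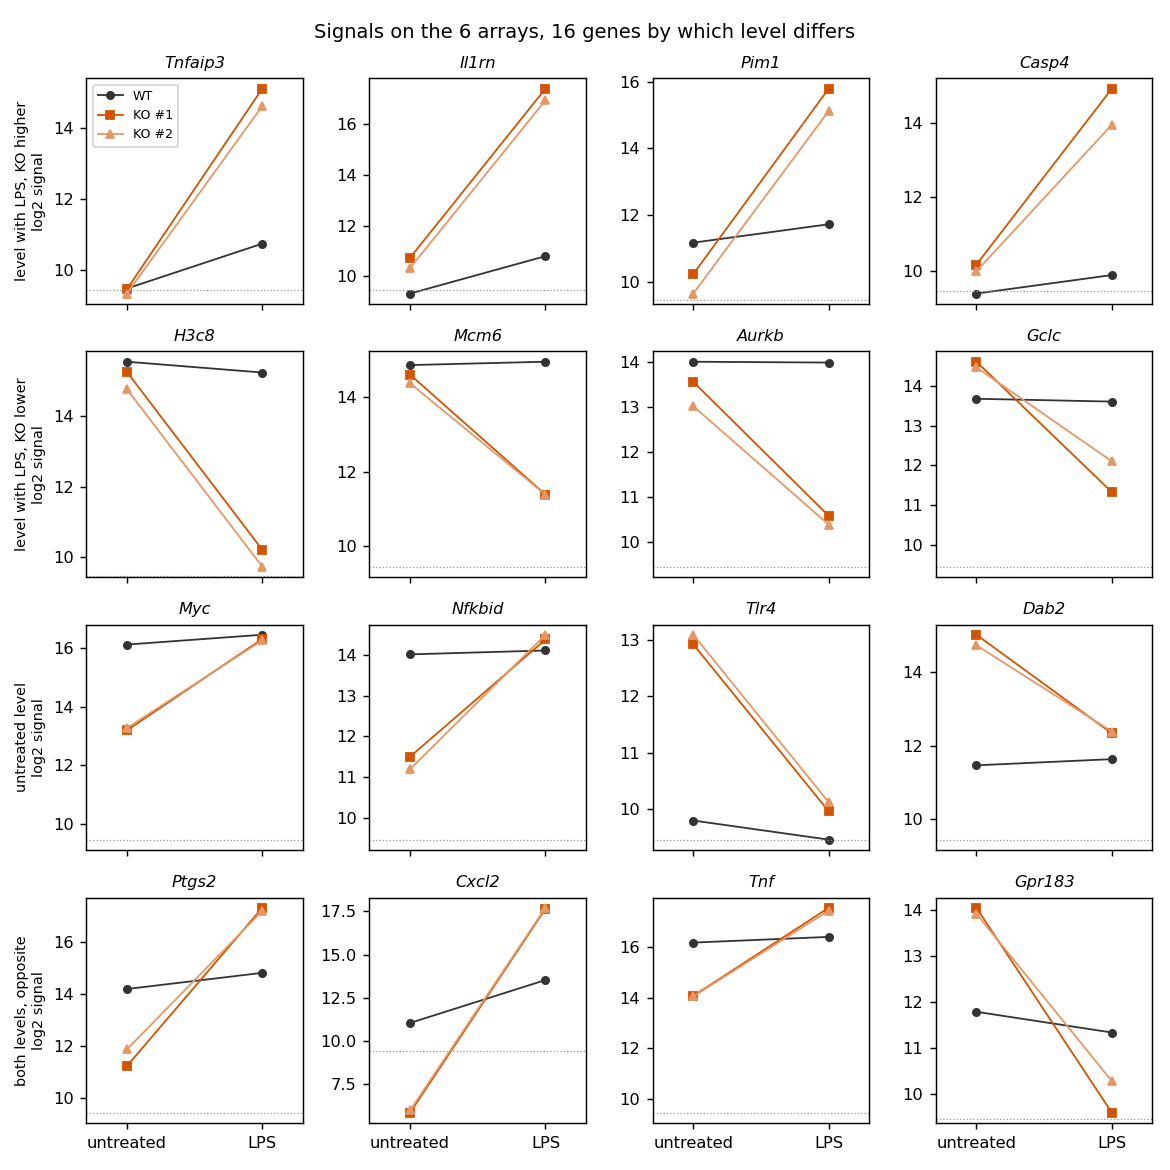
Log2 signals of 16 genes on the 6 arrays, untreated and with LPS, with WT cells in black and the clones in orange; the dotted line is the highest background limit of the arrays. In the first and second rows the lines of the genotypes end further apart than they start. In the third row (Myc, Nfkbid, Tlr4, Dab2) they start apart and end closer, and in the fourth (Ptgs2, Cxcl2, Tnf, Gpr183) they cross.

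Of 25 immediate early transcription factors, 3 passed toward KO higher and 0 toward KO lower (8 had an unadjusted p under 0.05, and with the clone as a block 4 were higher and 1 lower). Myc, a driver of growth and proliferation, was the plainest case of an untreated difference. Its signals were 16.12 untreated and 16.45 with LPS in WT cells, 13.19 and 16.31 in clone #1 and 13.27 and 16.27 in clone #2. WT cells were high on both arrays and the clones came near them only with LPS, which gave a difference of 2.73 (SE 0.26, adjusted p = 0.0102), with -2.89 (adjusted p = 0.00206) untreated and -0.17 (adjusted p = 0.669) with LPS. Odc1, which encodes the first enzyme of polyamine synthesis and is a known Myc target, was of the same kind with 14.76 and 15.34 in WT cells, 12.82 and 16.19 in clone #1 and 12.66 and 15.88 in clone #2 and 2.72 (SE 0.31, adjusted p = 0.0147). Both clones ended above WT cells in Odc1, a difference that did not pass. In Fosl1, an AP-1 subunit, and Ier3, a survival gene, the genotype difference changed sign. Fosl1 had 12.11 and 12.19 in WT cells, 9.70 and 13.18 in clone #1 and 9.97 and 13.21 in clone #2, and differed by 3.28 (SE 0.29, adjusted p = 0.00859). Ier3 differed by 3.76 (SE 0.29, adjusted p = 0.00745). On leaving out the untreated array of clone #1 or #2, 2 and 3 of the 3 list members still passed.

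Of 27 proinflammatory cytokines, 10 passed toward KO higher and 0 toward KO lower (16 had an unadjusted p under 0.05, and 15 were higher and 0 lower with the clone as a block), with a median difference of 3.21. In Tnf and Il1b KO cells started lower and ended higher. Tnf had log2 signals of 16.18 untreated and 16.41 with LPS in WT cells, 14.07 and 17.56 in clone #1 and 14.05 and 17.44 in clone #2. KO cells lay below WT cells untreated by -2.12 (adjusted p = 0.00544) and above them with LPS by 1.09 (adjusted p = 0.0182), so most of the 3.21 (SE 0.26, adjusted p = 0.00786) difference between responses came from the untreated side. Il1b had signals of 9.66 untreated and 11.02 with LPS in WT cells, 6.998 and 16.77 in clone #1 and 5.21 and 16.73 in clone #2. It was dim in both untreated clones but not in untreated WT cells, and its response was at least 63.8-fold larger in KO cells (adjusted p = 0.0113). Il1a, with 7.43 and 9.21 in WT cells, 3.99 and 16.71 in clone #1 and 4.59 and 16.46 in clone #2, and Csf3, the growth factor of neutrophils, with 6.87 and 9.73 in WT cells, 4.44 and 15.77 in clone #1 and 4.91 and 15.68 in clone #2, were dim on all untreated arrays, so that the direction of their untreated difference cannot be read. Il1rn, which encodes the IL-1 receptor antagonist, differed in the level with LPS, and with the clone as a block it was also higher untreated (adjusted p = 0.0224). It had 9.32 and 10.79 in WT cells, 10.73 and 17.41 in clone #1 and 10.33 and 16.95 in clone #2 and a response 36.2-fold larger in KO cells (5.18 (SE 0.40, adjusted p = 0.00745) on the log2 scale). Il27 was dim on both WT arrays and in the untreated clones and reached 14.88 and 13.92 in the clones with LPS (adjusted p = 0.00630). Il6 went from dim signals to 13.21 in clone #1 and 10.67 in clone #2, and did not pass with 4.88 (SE 1.32, adjusted p = 0.142). Without untreated clones #1 and #2, 8 and 8 of the 10 still passed.

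Chemokines passed toward KO higher in 8 of 28 genes and toward KO lower in 0 (13 had an unadjusted p under 0.05, and 10 were higher and 0 lower with the clone as a block), while the median of the list was 0.76 and 15 members were dim on all arrays. In 3 of the 8, Cxcl2, Ccl3 and Ccl4, the genotype difference changed sign between the untreated and the LPS arrays. Cxcl2, a neutrophil attractant, had log2 signals of 11.05 untreated and 13.53 with LPS in WT cells, 5.87 and 17.65 in clone #1 and 5.996 and 17.70 in clone #2. Untreated, WT cells were well above the clones, which were dim, and with LPS the order was reversed; the response was at least 55.8-fold larger in KO cells (adjusted p = 0.00109). Ccl3 and Ccl4 showed the same exchange of order. Ccl3 had 17.10 and 17.60 in WT cells, 14.78 and 18.51 in clone #1 and 14.81 and 18.56 in clone #2, with differences of -2.31 (adjusted p = 0.00402) untreated and 0.94 (adjusted p = 0.0282) with LPS, and a response difference of 3.25 (SE 0.26, adjusted p = 0.00755). Ccl4 had 10.94 and 12.11 in WT cells, 6.89 and 15.66 in clone #1 and 6.69 and 15.22 in clone #2 and a response at least 29.4-fold larger (adjusted p = 0.00176). Ccl5 and Ccl22, which attract T cells, were dim on both WT arrays and in the untreated clones, so the direction of their untreated difference cannot be read and their differences of 10.62 (adjusted p = 0.00110) and 11.30 (adjusted p = 0.00110) between signals have no fold. Ccl2, the monocyte attractant, was higher in KO cells at the end. Its signals were 10.72 and 11.28 in WT cells, 12.79 and 16.20 in clone #1 and 12.26 and 15.57 in clone #2, and its difference of 2.80 (SE 0.49, adjusted p = 0.0462) lay close to the threshold. Cxcl10, a target of interferons, did not pass with 5.05 (SE 1.21, adjusted p = 0.105), and the clones with LPS were 16.44 and 14.40. When untreated clone #1 or #2 was left out, 7 and 7 of the 8 still passed.

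The promoter of Cxcl2 (chr5:90903799-90903898, plus strand) is shown since its response difference had the largest bound among chemokines, and that of Cxcl3 (chr5:90786001-90786100, plus strand) since it differed with LPS alone. Capitals mark the κB matches.
Cxcl2: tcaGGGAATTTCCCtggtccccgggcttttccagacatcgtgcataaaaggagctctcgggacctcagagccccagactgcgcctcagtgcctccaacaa
Cxcl3: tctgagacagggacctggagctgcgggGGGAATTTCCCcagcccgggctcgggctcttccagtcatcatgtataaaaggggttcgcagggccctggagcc

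Enzymes that make lipid and gas mediators and itaconate passed toward KO higher in 8 of 20 genes and toward KO lower in 1. Ptgs2, the inducible cyclooxygenase, had signals of 14.21 untreated and 14.83 with LPS in WT cells, 11.24 and 17.33 in clone #1 and 11.88 and 17.21 in clone #2, lower than WT untreated and higher with LPS in both clones. The response was 33.9-fold larger in KO cells (5.08 (SE 0.42, adjusted p = 0.00792) on the log2 scale), with a genotype difference of -2.64 (adjusted p = 0.0112) untreated. Ptges, the prostaglandin E synthase that works with it, and Acod1, which makes itaconate, took the same course. Ptges had 11.38 and 12.74 in WT cells, 7.32 and 15.34 in clone #1 and 8.28 and 16.77 in clone #2, with at least 39.4-fold more response (adjusted p = 0.0219). Acod1 had 11.97 and 14.89 in WT cells, 8.92 and 17.74 in clone #1 and 8.88 and 17.84 in clone #2, with at least 44.2-fold more (adjusted p = 0.00130). Acod1 also had the largest rise in WT cells among the 641 genes, 2.93 on the log2 scale. Gch1, the first enzyme of tetrahydrobiopterin synthesis, and Sod2, the mitochondrial superoxide dismutase, differed with LPS, with response differences of 3.55 (adjusted p = 0.0219) and 2.35 (adjusted p = 0.0215). The gene that was lower was Alox5, the 5-lipoxygenase. It was dim on both WT arrays, stood at 10.99 and 10.22 in the untreated clones and was dim in the clones with LPS, so the KO fall was at least 2.25-fold. Hpgds, a prostaglandin D synthase outside this list, fell in the same way, from 12.90 and 12.45 to dim signals (at least 9.45-fold). With the untreated array of clone #1 or #2 dropped, 5 and 5 of the 9 still passed.

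Interferon-stimulated genes moved furthest as a group but in few genes past the test. All 49 measured had a positive difference between responses, with a median of 4.57, and 6 passed, all toward KO higher. Only the level with LPS passed in these 6, and 3 of them kept their call with dim signals raised. Over the whole list, KO against WT with LPS passed for 39 genes, all as higher. In WT cells 7 of the 49 were above the background limit untreated and 12 with LPS, so the median rests largely on dim WT signals. The median signals of the list were 7.06 untreated and 7.17 with LPS in WT cells, 9.58 and 14.08 in clone #1 and 7.10 and 12.31 in clone #2. The untreated clones thus differed from each other as well, clone #1 being above WT cells and clone #2 close to them. With the clone as a replicate block, which takes such differences out of the error, 42 passed, against 1 with robust moderation and 12 with an intensity trend. Ifit3, an antiviral RNA-binding protein, had 6.19 and 7.27 in WT cells, 7.25 and 16.64 in clone #1 and 6.82 and 14.70 in clone #2 and a KO rise of at least 77.5-fold, with a difference between signals of 7.56 (SE 1.04, adjusted p = 0.0243). Isg15, a ubiquitin-like modifier, had 5.47 and 6.66 in WT cells, 6.72 and 14.36 in clone #1 and 5.36 and 13.69 in clone #2 and 6.79 (SE 0.81, adjusted p = 0.0165), and WT cells were dim on both arrays for each of them. Rsad2, which encodes the antiviral enzyme viperin, ended at 14.68 in clone #1 and 9.90 in clone #2, and with 7.88 (SE 2.45, adjusted p = 0.186) it did not pass. Usp18, which removes ISG15, started at 11.48 in clone #1 and 6.73 in clone #2, and its difference was 5.66 (SE 2.50, adjusted p = 0.337). Among interferon regulatory factors and STATs, 2 of 21 passed toward KO higher and 0 toward KO lower, Stat2, dim in WT cells, with 3.87 (adjusted p = 0.0474) and the kinase Jak2 with 2.35 (adjusted p = 0.0493). On leaving out the untreated array of clone #1 or #2, 2 and 2 of the 6 interferon-stimulated genes still passed, and 0 of the 2 STAT pathway genes.

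Promoters of Isg15 (chr4:156200819-156200918, minus strand) and Ifit3 (chr19:34583362-34583461, plus strand) are shown with the interferon-stimulated response element in capitals. It was searched on both strands as GAAA, any 2 bases and GAAA, and overlapping matches run together.
Isg15: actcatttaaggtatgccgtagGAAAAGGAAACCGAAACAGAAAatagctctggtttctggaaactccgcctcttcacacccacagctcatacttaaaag
Ifit3: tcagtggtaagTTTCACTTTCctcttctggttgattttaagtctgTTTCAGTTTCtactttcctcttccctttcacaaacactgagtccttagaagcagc
All 4 genes of the list that passed and have a window held a match, against 3.94% of all tested genes with a window.

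Of 22 genes of inflammasomes and pyroptosis, 4 passed toward KO higher and 2 toward KO lower. The sensor Nlrp3 had 10.28 and 10.79 in WT cells, 10.37 and 13.80 in clone #1 and 10.31 and 13.04 in clone #2, close at the start, and 2.56 (SE 0.46, adjusted p = 0.0496). Casp4, the caspase-11 gene, which senses intracellular LPS, had 9.38 and 9.88 in WT cells, 10.16 and 14.93 in clone #1 and 9.98 and 13.95 in clone #2 and 3.87 (SE 0.57, adjusted p = 0.0289). Txnip, a thioredoxin-binding protein, passed toward KO lower with 14.73 and 14.63 in WT cells, 15.55 and 13.54 in clone #1 and 15.43 and 13.78 in clone #2 and -1.73 (SE 0.29, adjusted p = 0.0422). P2rx7, the ATP-gated channel, started higher in the clones and ended lower, with 9.63 and 9.17 in WT cells, 10.93 and 6.92 in clone #1 and 10.63 and 7.91 in clone #2, and its difference of -2.91 (SE 0.59, adjusted p = 0.0663) did not pass, but did with the clone as a block (adjusted p = 0.0252, and 0.00618 to 0.473 over the alternatives). Of 21 TNF receptors and TRAFs, 5 passed toward KO higher and 1 toward KO lower. Tnfrsf1b, the second TNF receptor, was higher in the clones at both times. Its signals were 7.24 and 8.43 in WT cells, 9.99 and 15.24 in clone #1 and 9.98 and 15.45 in clone #2, dim in WT cells, with a KO rise of 41.1-fold. Of 26 genes for antigen presentation or co-stimulation, 1 passed toward KO higher and 0 toward KO lower (7 had an unadjusted p under 0.05, and 6 were higher and 0 lower with the clone as a block). It was Cd80, a ligand of CD28. Its signals were 14.15 untreated and 14.30 with LPS in WT cells, 5.48 and 12.17 in clone #1 and 5.52 and 11.04 in clone #2, so it was bright in WT cells with or without LPS and dim in the clones until LPS was added. Its response was at least 4.16-fold larger in KO cells although both KO levels lay below WT. Without untreated clones #1 and #2, Cd80 did not pass, and 2 and 2 of the 6 inflammasome genes and 3 and 3 of the 6 TNF receptor genes did.

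Genes of the cell cycle fell in KO cells with LPS and stayed close to their untreated signals in WT cells. In RNA of whole cultures, fewer cycling cells and less of these RNAs per cell cannot be told apart. Of 44 replication-dependent histones, 40 passed toward KO lower and 0 toward KO higher, and in all 40 only the level with LPS passed. Their median signals were 15.49 untreated and 15.23 with LPS in WT cells, 15.29 and 11.20 in clone #1 and 14.80 and 10.92 in clone #2. Both clones and WT cells started near each other, and the clones fell much further, which gave a median difference between responses of -3.61 (-3.62 for clone #1 and -3.50 for clone #2). Untreated, 43 of the 44 lay slightly lower in the clones, with a median untreated difference of -0.32, and 0 of these untreated differences passed. H3c8, which encodes a histone H3, had 15.54 and 15.23 in WT cells, 15.25 and 10.21 in clone #1 and 14.76 and 9.73 in clone #2 and fell 32.8-fold in KO cells, with a difference of -4.73 (SE 0.43, adjusted p = 0.00935). H2ac8, which encodes a histone H2A, had 15.88 and 15.74 in WT cells, 15.76 and 11.18 in clone #1 and 15.57 and 10.55 in clone #2 and -4.67 (SE 0.42, adjusted p = 0.00905). The linker histone H1f1 ended dim in both clones, with 13.65 and 13.37 in WT cells, 13.36 and 7.93 in clone #1 and 12.90 and 8.12 in clone #2, and its fall was at least 10.6-fold larger in KO cells (adjusted p = 0.00739). Histone genes are near-identical in sequence and their probe sets can read each other's transcripts, so the 40 genes are not 40 separate observations. Replication-dependent histone mRNAs end in a stem-loop in place of a poly(A) tail and are made mainly in S phase. When untreated clone #1 or #2 was left out, 24 and 31 of the 40 still passed.

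Among genes of DNA replication, 27 of 39 passed toward KO lower and 0 toward KO higher, and all 39 had a negative difference. The median was -2.12. Mcm6 and Mcm5, subunits of the replicative helicase, had 14.86 and 14.95 in WT cells, 14.60 and 11.38 in clone #1 and 14.37 and 11.38 in clone #2 and 13.63 and 13.92 in WT cells, 13.50 and 10.38 in clone #1 and 13.18 and 10.64 in clone #2, with differences of -3.19 (adjusted p = 0.00859) and -3.12 (adjusted p = 0.0123). The WT signals rose slightly with LPS while those of both clones fell. Rrm2, a subunit of ribonucleotide reductase, had 15.53 and 15.46 in WT cells, 14.73 and 10.18 in clone #1 and 14.44 and 11.35 in clone #2, and its -3.74 (SE 0.66, adjusted p = 0.0474) lay near the threshold, with the clones apart from each other with LPS. E2f8, a repressor of the E2F family that peaks in S phase, had 15.09 and 14.93 in WT cells, 14.74 and 10.31 in clone #1 and 14.29 and 10.64 in clone #2 and -3.88 (SE 0.38, adjusted p = 0.0109). Of 38 mitosis genes, 20 passed toward KO lower and 0 toward KO higher, with a median of -1.97. Cyclin A2 (Ccna2) had 14.65 and 14.57 in WT cells, 14.04 and 9.999 in clone #1 and 13.62 and 10.88 in clone #2 and -3.31 (SE 0.56, adjusted p = 0.0422). The mitotic kinases Plk1 and Aurkb differed by -2.71 (adjusted p = 0.0179) and -2.78 (adjusted p = 0.0255), and Bub1, a checkpoint kinase, was lower in the clones untreated as well, by -1.13 (adjusted p = 0.0364). Most members lay slightly lower in the untreated clones too, 37 of 39 for replication and 37 of 38 for mitosis, with median untreated differences of -0.59 and -0.84. With the untreated array of clone #1 or #2 dropped, 3 and 5 of the 27 replication genes and 1 and 4 of the 20 mitosis genes still passed.

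Promoters of these lower genes are shown with a motif known for genes of each list. H3c8 (chr13:23535226-23535325, plus strand) and H1f1 (chr13:23763568-23763667, plus strand) have CCAAT in capitals, Mcm6 (chr1:128359706-128359805, minus strand) an E2F match (TTTCCCGC or TTTGGCGC) and Kif11 (chr19:37376282-37376381, plus strand), the spindle motor, a CHR match (TTTGAA), each searched on both strands.
H3c8: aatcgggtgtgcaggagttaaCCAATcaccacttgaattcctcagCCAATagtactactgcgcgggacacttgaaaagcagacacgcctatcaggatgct
H1f1: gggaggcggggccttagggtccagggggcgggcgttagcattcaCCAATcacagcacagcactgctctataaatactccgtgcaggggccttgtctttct
Mcm6: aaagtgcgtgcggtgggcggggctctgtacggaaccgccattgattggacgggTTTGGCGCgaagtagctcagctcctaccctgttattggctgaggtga
Kif11: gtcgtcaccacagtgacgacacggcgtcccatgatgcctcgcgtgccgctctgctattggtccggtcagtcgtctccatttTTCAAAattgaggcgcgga
Of the histone genes that passed and have a window, 33 of 38 held CCAAT, against 42.2% of all tested genes with a window. Several of the histone genes share a window with a divergent neighbor. An E2F match stood in 7 of 21 replication genes against 2.43%, and a CHR match in 11 of 16 mitosis genes against 17.8%. The motifs were not particular to a list, since a CHR match stood in 18 of the 38 histone genes and CCAAT in 12 of 21 replication and 10 of 16 mitosis genes. Short motifs such as these match often by their length alone, and none of the counts was tested.

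**Figure D3:**
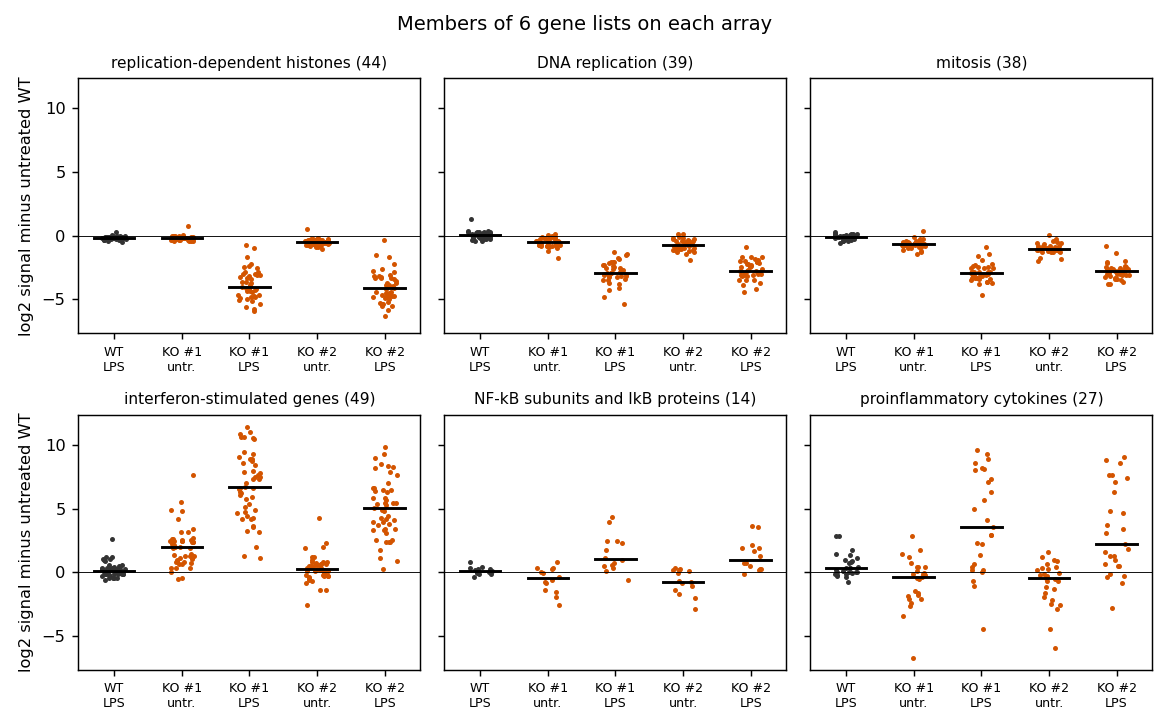
Each point is a member of the named list, plotted as its log2 signal on one array minus that on the untreated WT array, with the median as a bar; WT cells are black and the clones orange. Histone, replication and mitosis genes lie near 0 on the WT LPS array and well below 0 in the clones with LPS, and interferon-stimulated genes lie above 0 in untreated clone #1 as well.

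In 59 genes toward KO lower only the untreated level passed, with signals that started higher in untreated KO cells and lost that excess with LPS. Of these, 17 were above the background limit on at least 1 array of every group and 6 gave a lower bound. For 21, dim signals left no bound for the difference between responses, and 15 were dim in every group. Frmd4b, a scaffold protein, had 7.54 and 7.37 in WT cells, 12.60 and 7.77 in clone #1 and 12.08 and 7.34 in clone #2 and St8sia4, a polysialyltransferase, 10.15 and 9.99 in WT cells, 13.55 and 9.79 in clone #1 and 13.17 and 9.44 in clone #2. The clones thus began well above WT cells and ended near them (Frmd4b was dim on the other 4 arrays), and St8sia4 differed in response by -3.58 (SE 0.37, adjusted p = 0.0117). Dab2, an endocytic adaptor, had 11.47 and 11.63 in WT cells, 15.01 and 12.33 in clone #1 and 14.72 and 12.38 in clone #2 and -2.67 (SE 0.30, adjusted p = 0.0134). Pdcd4, an inhibitor of translation, had 11.01 and 10.80 in WT cells, 13.44 and 9.91 in clone #1 and 13.55 and 10.24 in clone #2 and -3.22 (SE 0.31, adjusted p = 0.0103), and the transcription factor Mef2c differed by -2.40 (adjusted p = 0.0211). In 16 genes the excess as measured turned into a deficit, and 1 of them was dim in every group. Gpr183, a receptor of oxysterols, had 11.79 and 11.34 in WT cells, 14.05 and 9.59 in clone #1 and 13.92 and 10.28 in clone #2, and its response difference of -3.60 (SE 0.44, adjusted p = 0.0176) was made of 2.20 (adjusted p = 0.0233) untreated and -1.40 (adjusted p = 0.0417) with LPS. Otulinl, a relative of the deubiquitinase OTULIN that was dim in the clones with LPS, Pip4k2a, a phosphoinositide kinase, and Daglb, a diacylglycerol lipase, followed with differences of -3.66 (adjusted p = 0.00745), -2.47 (adjusted p = 0.0201) and -2.43 (adjusted p = 0.0128). Calcrl, the receptor of adrenomedullin and CGRP, was the converse case. It started lower in the clones, with 12.86 and 13.15 in WT cells, 10.78 and 14.79 in clone #1 and 10.16 and 14.001 in clone #2, and differed by 3.64 (SE 0.57, adjusted p = 0.0352). With the clone as a block its level with LPS passed too (adjusted p = 0.0105), in the opposite direction.

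A few genes outside these lists were among the largest differences at the level with LPS. Serpinb2, a plasminogen activator inhibitor, had 4.34 and 5.36 in WT cells, 4.52 and 16.07 in clone #1 and 4.66 and 15.44 in clone #2, dim on every array except those of the clones with LPS (adjusted p = 0.00111). The matrix protein gene Tnc and the acute phase gene Saa3 had the same form, with KO rises of at least 47.8-fold and at least 35.3-fold. The kinase gene Pim1 was above the limit throughout, with 11.17 and 11.72 in WT cells, 10.22 and 15.79 in clone #1 and 9.64 and 15.12 in clone #2, and its response was 31.3-fold larger in KO cells (4.97 (SE 0.52, adjusted p = 0.0120) on the log2 scale); with the clone as a block it was also lower untreated (adjusted p = 0.0211). Among the 28 genes whose levels differed in the same direction at both times, Fgr, a SRC family kinase, and Ptafr, the receptor of platelet-activating factor, were higher in the clones untreated and rose further, to 13.04 and 13.06 and to 12.90 and 12.90. Cd276, an immune checkpoint ligand, and Cldn11, a claudin, were likewise higher untreated but fell. Cd276 had 9.21 and 9.02 in WT cells, 14.16 and 11.54 in clone #1 and 13.61 and 11.28 in clone #2, dim in WT cells, and -2.28 (SE 0.40, adjusted p = 0.0462).

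Metabolic and stress lists are given beside the shares over all genes, 1.43% toward KO higher and 1.86% toward KO lower. With shares this low, 0 calls in a list of such length do not set it apart from all genes. Of 22 glycolysis and hypoxia genes, 2 passed toward KO higher and 3 toward KO lower. The hexokinases went in opposite directions. Hk1 had 13.65 and 13.23 in WT cells, 14.78 and 12.04 in clone #1 and 15.03 and 12.31 in clone #2 and -2.31 (SE 0.32, adjusted p = 0.0244), while Hk2 had 10.66 and 11.03 in WT cells, 9.53 and 12.04 in clone #1 and 8.80 and 12.19 in clone #2 and 2.58 (SE 0.46, adjusted p = 0.0476). Pfkfb3, which makes an activator of glycolysis and was dim except in the clones with LPS, differed by 4.38 (adjusted p = 0.00415) and Pdk1, which inhibits pyruvate dehydrogenase, by -2.42 (adjusted p = 0.0302). Of 23 genes of the unfolded protein and integrated stress response, 4 passed toward KO higher and 0 toward KO lower, among them the chaperone Dnajb9 with 2.27 (adjusted p = 0.0206) and the cystine transporter Slc7a11 with 2.62 (adjusted p = 0.0143). Of 18 NRF2 targets, which include Slc7a11, 1 passed in each direction. The lower one, Gclc, which makes glutathione's precursor, had 13.68 and 13.61 in WT cells, 14.61 and 11.33 in clone #1 and 14.47 and 12.11 in clone #2 and -2.75 (SE 0.48, adjusted p = 0.0454). Of 19 p53 targets and CDK inhibitors, 3 passed in each direction, with Mdm2, the p53 ligase, at 1.61 (adjusted p = 0.0417). By limma 0 genes passed among 19 of cholesterol synthesis, 23 of lipins and glycerolipid synthesis and 25 lysosomal genes, with 1, 6 and 7 at an unadjusted p under 0.05 and 0, 1 and 1 with the clone as a block. Among lipins, Lpin3 differed by 0.81 (SE 0.27, adjusted p = 0.214). The ABC transporter Abca1, which exports cholesterol, was the 1 of 11 efflux genes that passed, with 2.79 (adjusted p = 0.0239) from dim WT signals. None of the calls in the unfolded protein, NRF2 and efflux lists passed without untreated clone #1 or without untreated clone #2. Of the 5 calls for glycolysis 2 and 1 did, and of the 6 for p53 targets 1 and 2.

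Macrophage markers were checked beside these results. Of 27 macrophage identity genes, 2 passed toward KO higher and 0 toward KO lower. These were the mannose receptor Mrc1, dim except in the clones with LPS, with 4.35 (adjusted p = 0.0405) and Ccr2 with 1.79 (adjusted p = 0.0422). KO against WT passed for 11 of the 27 as higher untreated and for 11 as higher with LPS. Cebpa, a factor of myeloid cells, was among those higher untreated, with 6.87 and 7.20 in WT cells, 10.80 and 7.70 in clone #1 and 10.72 and 8.70 in clone #2 and a difference between responses of -2.89 (SE 0.57, adjusted p = 0.0633). Of 20 osteoclast genes 1, Tfec, passed toward KO higher and 0 toward KO lower, and both Tfec and Ccr2 were dim on all 6 arrays. Nfatc1, the master regulator of osteoclasts, had 15.20 and 15.37 in WT cells, 14.40 and 14.32 in clone #1 and 14.79 and 15.02 in clone #2 and -0.10 (SE 0.48, adjusted p = 0.955). All members of the lists of dendritic cell (12), neutrophil and mast cell (15), lymphocyte (14) and fibroblast and epithelial markers (15) were dim on all 6 arrays, and 1 of them, Ccr9, passed. The calls for macrophage identity, osteoclast and dendritic cell genes were lost without untreated clone #1 and also without untreated clone #2.

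**Figure D4:**
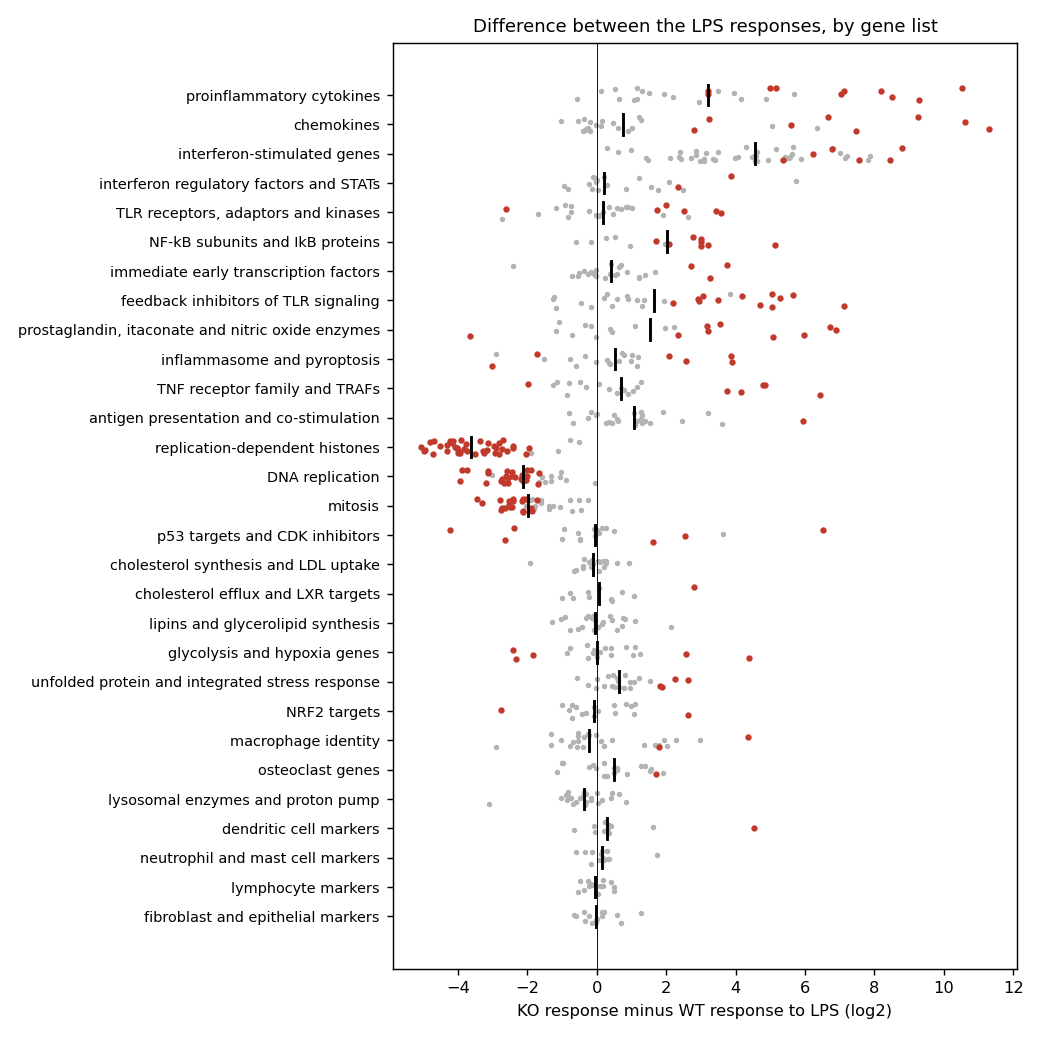
Difference between the LPS responses (log2, KO minus WT) of each member of the 29 gene lists, with genes that passed limma's test in red, the others in grey and the list's median as a bar. Histone, replication and mitosis genes lie to the left of 0 and interferon-stimulated genes to the right, most of the latter in grey.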

How the data were processed

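Each of 6 RAW-D cultures gave 1 Clariom S array, and samples were grouped by the genotype and treatment in their labels. The authors made the deposited log2 values with RMA (background correction, quantile normalization and probe summary); the software version is not given here. Of 28846 values per array, 22206 belonged to gene probe sets, 19572 of which had a symbol; of several probe sets for 1 gene (55 genes) the brightest was used, leaving 19505.

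The fit was made in R 4.3.3 with limma 3.58.1, using group means and moderated variances (3.83 prior degrees of freedom beside 2 residual), and was tested on simulated data. The replicate block used the clone as a term. Its p-values for KO against WT at one level leave out the spread between the clones, so a kind that changes with the block rests on a more lenient test. Each number marks 1 clone in both treatments, and deviations from the group means correlated across genes with 0.222, so the numbers pair the samples. P-values measure only the spread between 2 clones, and the number of arrays limits the precision. The genes described and the 29 gene lists were chosen with earlier results of these data known, so their counts are descriptions. Genes named are those the study's text is about, the largest differences per kind (10 each way for the level with LPS, 6 for the others) and up to 4 called members per list, or 2 without a call; others were added after their values were seen. Promoters come from RefSeq (GRCm38.p6). Scanned images were not used here.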

Additional observations from a re-analysis of the deposited data

Results flagged for a closer look

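The LPS response differed between WT and KO cells by the test of the difference itself, which flags each of the groups below. Where only the level with LPS passed, there were 179 genes toward KO higher, led by Serpinb2 with a log2 difference between responses of 10.1, and 258 toward KO lower, led among genes above background by H3c8 with -4.73. Where only the untreated level passed, 35 genes were toward KO higher, led by Calcrl with 3.64, and 59 toward KO lower, led by St8sia4 with -3.58. With opposite directions, the counts were 43, led by Ccl5 with 10.6, and 16, led by Gpr183 with -3.6. With the same direction, they were 11, led by Tnfrsf1b with 4.17, and 17, led by Hpgds with -4.88. The leading gene is the one with the largest difference after dim signals were raised to the background limit. Serpinb2, Ccl5, Tnfrsf1b and Hpgds were dim on both WT arrays, so the values given for them are differences between signals as measured. Ccl5 was dim in the untreated clones too, so the direction of its untreated difference cannot be read. Hpgds was dim in the clones with LPS too, so the direction of its difference with LPS cannot be read.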

How the results depend on the processing

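The counts depend on how the spread is estimated and on the untreated KO arrays. In the order KO higher, KO lower, level with LPS, untreated level, opposite and same direction, the main counts of 278, 363, 437, 94, 59 and 28 became 0, 1, 0, 1, 0 and 0 without moderation, 513, 565, 672, 176, 102 and 97 with the replicate block, and 60, 41, 73, 16, 10 and 1 at an adjusted p under 0.01. With each KO array left out in turn they ranged from 91 to 544, 65 to 631, 111 to 783, 26 to 174, 19 to 100 and 4 to 71, lowest without an untreated clone and highest without clone #2 with LPS. With genes dim on all arrays left out, 147 passed by the untreated level, 90 in opposite directions and 67 in the same direction. With dim signals raised, over the same 6708 genes, 169 and 83 passed by the untreated level and in the same direction, and with an intensity trend 164 and 53. The cause of these shifts was not tested. All 641 genes kept their sign in the alternatives that tested them, except with dim signals raised, where 558 were tested, 538 kept it and 427 still passed. The replicate block kept all 641 calls of a difference between responses. Of the 112 named genes that passed, the level that differed changed with the block for 9: Il1rn, Stat2 and Mrc1 (from the level with LPS to both in the same direction), Pim1 and Fas (to opposite directions), Calcrl and Sesn1 (from untreated to opposite), and Hk2 and Chac1 (from neither to 1 level). Of these 112, 60 and 64 still passed without untreated clone #1 and #2, and 0 without moderation. Split by the share of the difference that the level with LPS makes up, 376 genes had over 75%, 81 under 25% and 184 lay between. Signals under the background limit, 12797 genes on all arrays, limit what can be read of WT responses.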

Other observations

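Families largely outside the lists above were picked after their values were seen. The counts are over the members chosen, which need not be whole families. Over all genes, 1.43% passed toward KO higher and 1.86% toward KO lower. The 3 PIM kinases, which support cell survival, passed toward KO higher, but only Pim1, described above, was above the background limit throughout. Pim2 was dim in untreated WT cells and in both untreated clones, and Pim3 in untreated WT cells and in the clones on all arrays. With dim signals raised to the limit their differences were -0.08 and -0.03, so no direction can be read for them. Of 11 chosen genes of the BCL2 family, which governs apoptosis, 6 passed, all toward KO higher. Bbc3 and Pmaip1, also of this family, were in the list of p53 targets and are not counted here. Bcl2l11, which encodes the death-promoting protein BIM, had 11.33 and 11.45 in WT cells, 11.25 and 13.58 in clone #1 and 11.50 and 13.49 in clone #2 and 2.05 (SE 0.29, adjusted p = 0.0269), and the survival gene Bcl2l1 had 9.53 and 10.06 in WT cells, 9.51 and 12.87 in clone #1 and 9.45 and 12.25 in clone #2 and 2.55 (SE 0.41, adjusted p = 0.0358). The other 4 were Bcl2a1a, Bcl2a1b, Bcl2a1d and, dim in WT cells and in the untreated clones, Bcl2a1c. They are near-identical copies whose probe sets can read each other's transcripts, so they count as 1 observation at most. Mcl1, another survival gene, had 0.53 (SE 0.28, adjusted p = 0.431).

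Receptors of developmental pathways were among the genes that passed. In the TGF-β group, 3 of 10 genes passed, all toward KO lower. The type II receptor Tgfbr2 had 10.43 and 10.29 in WT cells, 12.11 and 10.37 in clone #1 and 11.99 and 10.20 in clone #2, starting higher in the clones and ending beside WT cells, with -1.62 (SE 0.28, adjusted p = 0.0443). Tgfbr1 was dim on both WT arrays and in the clones with LPS, and the corepressor Ski was dim on all 6 arrays, so Tgfbr2 is the 1 of the 3 that was above the limit throughout. In the Notch group 3 of 10 passed, all toward KO higher: the ligand Jag1, with 7.94 and 8.32 in WT cells, 6.89 and 12.01 in clone #1 and 7.21 and 12.58 in clone #2, dim on every array except those of the clones with LPS (a KO rise of at least 7.47-fold, adjusted p of the difference = 0.00818), the receptor Notch2, with 10.94 and 11.15 in WT cells, 10.80 and 12.98 in clone #1 and 10.83 and 12.85 in clone #2 and 1.89 (adjusted p = 0.0261), and Notch1, which was dim on all 6 arrays.

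A further 2701 probe sets of genes had no symbol or were the second of a gene and entered no count above. Of these, 671 were above the background limit on at least 1 array and 41 passed the test of the difference between responses in a fit of all probe sets, 33 of them above the limit.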
